A study of Mus musculus with 10 samples.

Results

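The 8 genes described here are members of the epidermal growth factor (EGF) family and its receptors: the ligand genes Areg, Ereg, Hbegf, Btc, Tgfa and Nrg1 and the receptor genes Egfr and Erbb2. They were picked by gene symbol from a table of 45706 mouse genes, with earlier results of these data known, and 7 of the 8 were among the 14550 genes with enough counts to be tested. The libraries were 3′ mRNA tag (QuantSeq) libraries of 10 whole melanoma tumors, each removed 4 days after subcutaneous injection of tumor cells into 8-week-old C57BL/6 mice. The melanoma cell line used came from a C57BL/6 model in which BRAF V600E is expressed from the Braf locus under an inducible Cre recombinase driven by the Tyr promoter, on a background lacking p16 INK4a, so tumors of all groups carry both alterations.

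Of the 10 tumors, 4 were grown from wildtype tumor cells (Ptgs+/+) and 3 from Ptgs1/Ptgs2 deficient tumor cells (Ptgs-/-), both in mice given no depleting antibody. The other 3 were Ptgs-/- tumors of NK cell-depleted hosts (called depleted hosts below, and the rest competent hosts), given 200 µg of anti-NK1.1 (clone PK136) and 30 µg of anti-asialo GM1 per the labels. Ptgs1 and Ptgs2 encode the cyclooxygenases COX-1 and COX-2, which make the precursor of prostaglandin E2 (PGE2), and they were disrupted in the tumor cells by CRISPR/Cas9, so host cells kept both genes. There was no group of Ptgs+/+ tumors in NK cell-depleted mice, and whether the Ptgs-/- cells are 1 clone is not given in the sources used here. The labels carry 2 experiment codes: Ptgs+/+ tumor 4 and Ptgs-/- tumor 3 have EB042 and the other 8 tumors EB046. Replicates are separate tumors by their labels.

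EGF family ligands are made as proteins anchored in the cell membrane and are released when metalloproteinases of the ADAM family cut them. Amphiregulin (Areg), epiregulin (Ereg), HB-EGF (Hbegf), betacellulin (Btc), TGF-α (Tgfa), EGF and epigen (Epgn) bind the EGF receptor, some of them also ERBB4, whereas neuregulins bind ERBB3 and ERBB4. ERBB2 has no ligand of its own and works as the partner of the other receptors. Bound receptors signal through adaptors to Ras and the kinase ERK, whose output includes genes that damp the pathway, and BRAF V600E enters this chain below the receptors. PGE2 receptors EP2 and EP4 raise cAMP, and Areg and Ereg are textbook targets of cAMP signaling through the factor CREB in several epithelial and ovarian cell types.

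A site that CREB binds is written TGACGTCA. Of the 8 genes, Ereg, Hbegf and Nrg1 were left out of the promoter search, so it says nothing about them. Promoters from RefSeq's table for GRCm38.p6 were searched for the remaining 5 (Areg, Tgfa, Btc, Egfr and Erbb2). The 250 bases before the start of 2 of these ligand genes on chromosome 5 are printed because their transcripts gave different results below: Areg (chr5:91139349-91139598, plus strand) and Btc (chr5:91402995-91403244, minus strand). Capitals mark the full site TGACGTCA or its first part TGACG, searched on both strands, so that the first part also appears as CGTCA, and every full site contains it on each strand.
Areg: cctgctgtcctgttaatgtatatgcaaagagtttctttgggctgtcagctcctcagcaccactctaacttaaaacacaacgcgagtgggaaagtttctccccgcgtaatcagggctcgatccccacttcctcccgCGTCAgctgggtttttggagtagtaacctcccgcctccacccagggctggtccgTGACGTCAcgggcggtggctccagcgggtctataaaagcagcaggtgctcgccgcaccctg
Btc: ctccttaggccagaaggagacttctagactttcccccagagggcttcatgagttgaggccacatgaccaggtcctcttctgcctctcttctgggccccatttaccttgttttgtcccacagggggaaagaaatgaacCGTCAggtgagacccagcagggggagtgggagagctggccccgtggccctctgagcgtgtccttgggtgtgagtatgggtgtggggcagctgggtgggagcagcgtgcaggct
The Areg promoter held 1 full site, starting 61 bases before the gene start, and a further first part 115 bases before it. The Btc promoter held no full site and 1 first part, 113 bases before the start. Over all 32851 promoters of this length in the table, 1.55% held the full site and 17.8% the first part. Among the other 3 genes, Erbb2 had 1 first part, 171 bases before its start, and Tgfa and Egfr had none. The AP-1 letters TGANTCA, found in 6.75% of all promoters, occurred in none of the 5. These matches describe letters in the reference and not bound sites.

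The 10 libraries held between 8150556 and 12839174 counts, and 3 counts in a library correspond to 0.238 to 0.364 CPM. CPM is a count scaled to a common library total, here with edgeR's TMM factors. A tag comes from the 3′ end of a transcript, so CPM does not grow with transcript length. Mean Ptgs2 fell from 259 CPM in Ptgs+/+ to 42.3 in Ptgs-/- tumors (log2 fold change -2.62, adjusted p = 0.00229). Its range was 96.7 (tumor 3) to 353 CPM in Ptgs+/+ and 26.0 to 74.0 CPM in Ptgs-/- tumors. Mean Ptgs1 fell from 155 to 92.1 CPM (log2 fold change -0.76, adjusted p = 0.00202). Where the cut lies relative to the 3′ tags is not given in the sources used here, and host cells add tags, so these counts check the labels only in direction. The summed level of 7 NK cell markers was 10.1 to 27.8 CPM in Ptgs+/+ tumors, 63.3 to 134 in Ptgs-/- tumors and 4.61 to 5.11 in those of depleted hosts. Of 8 melanocytic markers in these tumors labelled melanoma, Mitf (17.4 to 32.7 CPM), S100b (6.00 to 29.8 CPM) and Sox10 (0.205 to 5.67 CPM) passed the filter. The pigment cell genes Dct, Tyr, Tyrp1, Pmel and Mlana were at or near 0, at most 0.751 CPM in any tumor.

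**Figure D1:**
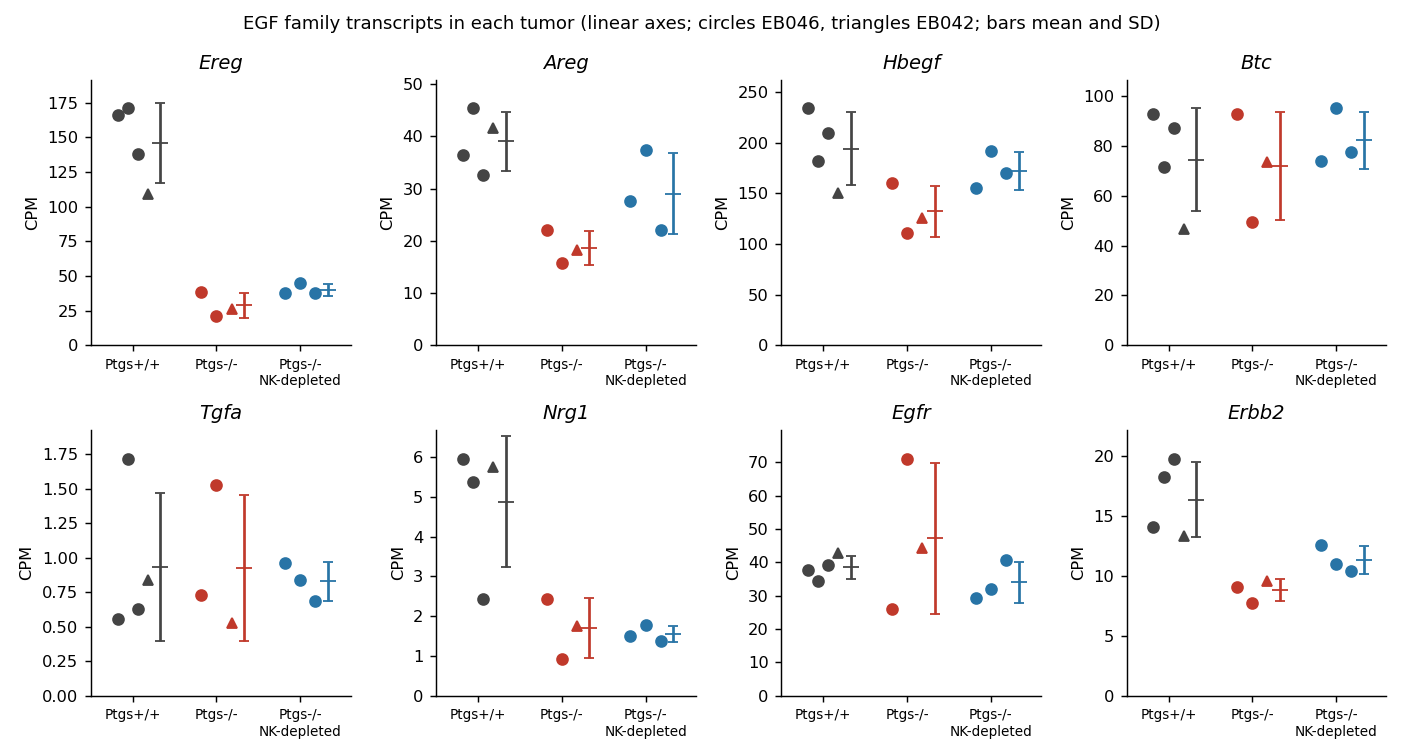
TMM-scaled levels (CPM, linear axes from 0) of the 8 genes in each of the 10 tumors, with circles for experiment code EB046, triangles for EB042, and bars for the mean and SD of each group. Ereg separates the 4 Ptgs+/+ tumors (109 to 171 CPM) from all 6 Ptgs-/- tumors (21.4 to 44.7 CPM), whereas Btc and Tgfa overlap in all 3 groups.

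The first question was whether loss of COX in the tumor cells changed EGF family transcripts in hosts with NK cells. Of the 7 tested genes, 5 were lower in Ptgs-/- than in Ptgs+/+ tumors (Ereg, Nrg1, Areg, Erbb2 and Hbegf) and none was higher, at a Benjamini-Hochberg adjusted p at or under 0.05 over all genes, by the quasi-likelihood test of edgeR. Over all 14550 genes, 23.1% passed by the same rule, 1597 lower and 1763 higher. The median log2 fold change was -0.89 over the 7 genes and -0.01 over all genes. By the study's rule, which also asks for a log2 fold change of 1.5 or more in size, Ereg and Nrg1 were called lower, beside 1.01% of all genes. The count of 5 became 3 without Ptgs-/- tumor 2 and within code EB046 alone, where Nrg1 and Hbegf no longer passed. Whole tumors were measured, so fewer cells of a type and less RNA per cell cannot be told apart.

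Ereg, the gene of epiregulin (chr5:91074622-91093646, plus strand), had the largest difference of the 7. It stood at 166, 171, 138 and 109 CPM in the 4 Ptgs+/+ tumors and at 38.7, 21.4 and 26.3 CPM in the 3 Ptgs-/- tumors. The lowest Ptgs+/+ tumor was above the highest Ptgs-/- tumor, and 4 of the 7 genes had groups that did not overlap with the Ptgs-/- tumors lower (Ereg, Areg, Nrg1 and Erbb2), against 15.2% of all genes. Mean Ereg levels were 146 ± 28.6 CPM (SD, n = 4) and 28.8 ± 8.92 CPM (SD, n = 3), and the fitted level was 5.09-fold lower (log2 fold change -2.35, SE 0.22, adjusted p = 6.39e-05). Within code EB046 the log2 fold change was -2.37 (adjusted p = 0.00119), and the single EB042 tumors stood at 109 and 26.3 CPM. Leaving out any 1 tumor gave -2.62 to -2.16.

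Areg, the gene of amphiregulin, a ligand made by epithelial and several immune cells in tissue repair, lies next to Ereg (chr5:91139599-91148432, plus strand). Its levels were 36.5, 45.4, 32.7 and 41.7 CPM in Ptgs+/+ tumors and 22.1, 15.7 and 18.3 CPM in Ptgs-/- tumors. Every Ptgs+/+ tumor was above every Ptgs-/- tumor. The means were 39.1 ± 5.57 CPM (SD, n = 4) and 18.7 ± 3.22 CPM (SD, n = 3), a 2.10-fold lower fitted level (log2 fold change -1.07, SE 0.19, adjusted p = 0.00272). Within code EB046 the log2 fold change was -0.99 (adjusted p = 0.0319), and the EB042 tumors stood at 41.7 and 18.3 CPM.

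Hbegf, the gene of HB-EGF on chromosome 18, was the most abundant of the 8 genes in all 10 tumors. It stood at 234, 182, 210 and 150 CPM in Ptgs+/+ tumors and at 160, 111 and 126 CPM in Ptgs-/- tumors, so Ptgs-/- tumor 1 exceeded Ptgs+/+ tumor 4. The log2 fold change was -0.55 (SE 0.16, adjusted p = 0.0307), a 1.47-fold lower level. This was the least stable of the 5 calls: the adjusted p was 0.0908 without Ptgs+/+ tumor 1, 0.0511 without Ptgs+/+ tumor 2, 0.14 without Ptgs-/- tumor 2, 0.107 without Ptgs-/- tumor 3, 0.0507 without NK cell-depleted tumor 3, 0.0524 within code EB046 and 0.0644 with the 2 groups fitted alone.

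Btc, the gene of betacellulin (chr5:91357261-91402994, minus strand), is the third ligand gene tested from that stretch of chromosome 5. It ranged from 46.6 to 92.8 CPM in Ptgs+/+ tumors and from 49.5 to 92.7 CPM in Ptgs-/- tumors. The groups covered nearly the same range, and the log2 fold change was -0.05 with a 95% interval of -0.58 to 0.48 (adjusted p = 0.899) and turned to 0.0085 when scaled by library size alone. Tgfa, the gene of TGF-α (chr6:86195223-86275719, plus strand), had 6 to 16 counts in every tumor and fell below the filter, with mean levels of 0.935 CPM in Ptgs+/+ and 0.93 CPM in Ptgs-/- tumors. Without a filter its log2 fold change was 0.04 (SE 0.49), so a difference was not detectable at this depth.

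Nrg1, which encodes neuregulin-1 (chr8:31814551-32884029, minus strand), the growth factor that acts on ERBB3 and ERBB4, was scarce. Its counts were 75, 50, 27 and 55 in Ptgs+/+ tumors and 20, 9 and 20 in Ptgs-/- tumors, or 5.96, 5.36, 2.43 and 5.75 CPM against 2.42, 0.921 and 1.76 CPM. The groups did not overlap, but Ptgs+/+ tumor 3 was level with Ptgs-/- tumor 1. The fitted level was 2.88-fold lower (log2 fold change -1.53, SE 0.37, adjusted p = 0.0134), and the adjusted p was 0.0647 without Ptgs-/- tumor 2 and 0.0815 within code EB046.

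**Figure D2:**
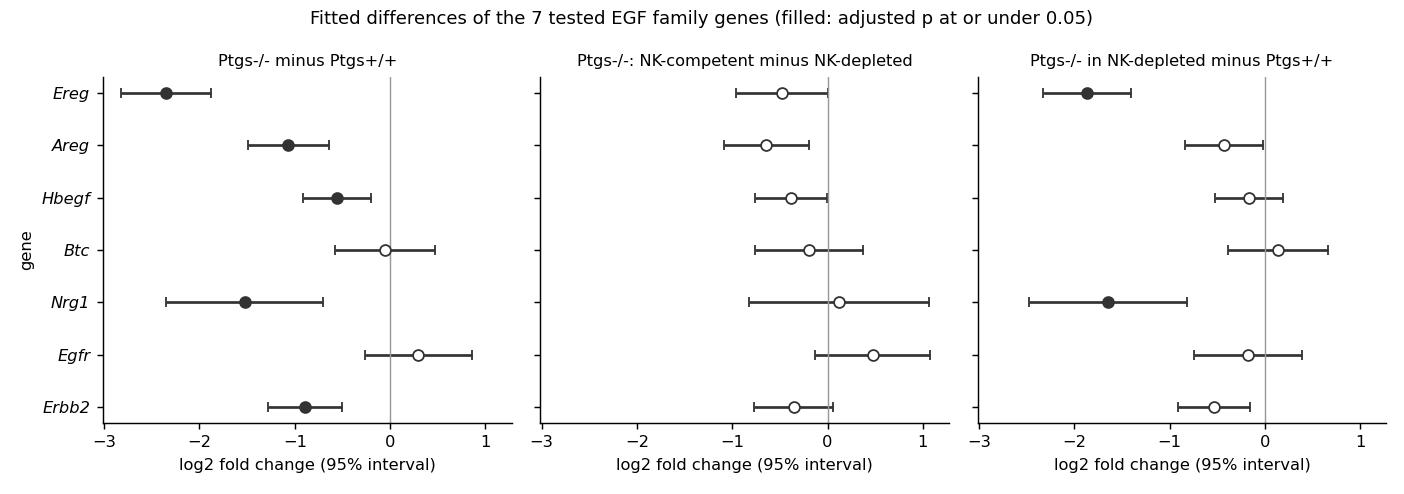
Fitted log2 fold changes (x axis) of the 7 tested genes in the 3 comparisons, with 95% intervals and filled points for an adjusted p at or under 0.05. Filled points are Ereg, Areg, Hbegf, Nrg1 and Erbb2 on the left, none in the middle, and Ereg and Nrg1 on the right.

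Of the 2 receptor genes, Erbb2 (chr11:98412470-98437716, plus strand) was lower and Egfr was not shown to differ. Erbb2 stood at 14.1, 18.3, 19.8 and 13.3 CPM in Ptgs+/+ tumors and at 9.09, 7.78 and 9.57 CPM in Ptgs-/- tumors. The groups did not overlap, and the fitted level was 1.85-fold lower (log2 fold change -0.89, SE 0.18, adjusted p = 0.0045). Within code EB046 the log2 fold change was -1.01 (adjusted p = 0.0139), and the EB042 tumors stood at 13.3 and 9.57 CPM. The last 9 bases of Erbb2 overlap the end of Mien1 on the other strand, and whether the counting used strand is not given in the sources used here. Mien1 had 1204 to 2001 counts per tumor and a log2 fold change of 0.04 (adjusted p = 0.851).

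Egfr (chr11:16752203-16918158, plus strand) encodes the receptor of the ligands above other than neuregulin-1. It stood at 37.6, 34.4, 39.1 and 42.7 CPM in Ptgs+/+ tumors. The 3 Ptgs-/- tumors were far apart, at 26.1, 71.1 and 44.3 CPM, on both sides of the Ptgs+/+ range. The log2 fold change was 0.30 (95% interval -0.27 to 0.86, adjusted p = 0.441) and moved with single tumors: it was 0.58 (adjusted p = 0.0514) without Ptgs-/- tumor 1 and changed sign, to -0.11 (adjusted p = 0.772), without Ptgs-/- tumor 2. In that tumor the summed levels of 8 fibroblast and 8 macrophage markers were also the highest of all 10, and their part in the Egfr value was not tested. The antisense gene Egfros, with 6 to 57 counts, overlaps Egfr on the other strand, away from its 3′ end.

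The rest of the family was low or absent. Epgn, which lies beside Ereg, had 8, 4, 3 and 4 counts in the Ptgs+/+ tumors and 1, 0 and 0 in the Ptgs-/- tumors. It was below the filter, and without a filter its adjusted p was 0.047. Egf, Nrg2, Nrg4 and Erbb3 passed the filter at mean levels of 1.04, 1.98, 2.27 and 9.57 CPM in Ptgs+/+ tumors, and none of the 4 passed the test in any of the 3 comparisons. Nrg3 and Erbb4 each had 1 count in 1 of the 10 tumors. ERBB4, a receptor of betacellulin, HB-EGF, epiregulin and the neuregulins, was thus at or near 0 as a transcript, and the receptor levels were ordered Egfr, Erbb2 and Erbb3 in the mean of each group.

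The make-up of the ligand pool differed between the genotypes. Ereg made up 31.3%, 36.1%, 29.4% and 31.2% of the counts on the 7 EGFR ligand genes in Ptgs+/+ tumors and 12.3%, 10.7% and 10.7% in Ptgs-/- tumors. Hbegf made up 38.5% to 44.7% and then 50.6% to 55.5%, and Btc 13.3% to 18.5% and then 24.7% to 30.0%. The summed ligand level was 350 to 532 CPM in Ptgs+/+ and 201 to 315 CPM in Ptgs-/- tumors. There were 4.56, 3.77, 4.22 and 2.61 Ereg counts for each Areg count in Ptgs+/+ tumors and 1.75, 1.37 and 1.44 in Ptgs-/- tumors. The mean log2 ratio was 1.89 and 0.59, and the two-sided exact permutation test of this ratio, chosen after its values were seen, gave p = 0.0571, the smallest that 4 against 3 tumors allow.

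**Figure D3:**
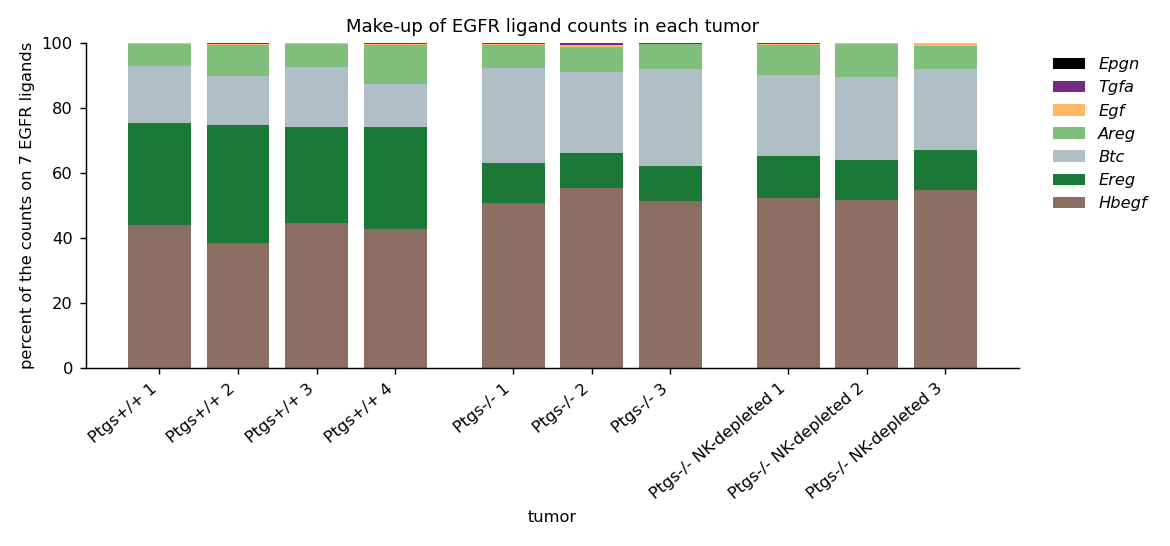
Percent of the counts on 7 EGFR ligand genes (y axis) taken by each gene in each of the 10 tumors (x axis). The Ereg segment spans 29.4% to 36.1% in the 4 Ptgs+/+ tumors and 10.7% to 12.7% in the 6 Ptgs-/- tumors, and the Tgfa, Egf and Epgn segments are thin lines at the top.

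Between Ptgs-/- and Ptgs+/+ tumors levels of marker genes also differed, beside 23.1% of all genes that passed, 1597 lower and 1763 higher. The sum of 10 neutrophil markers was 488 to 735 CPM in Ptgs+/+ and 115 to 177 CPM in Ptgs-/- tumors. Of the 9 tested markers 6 were lower and none higher. Ly6g, too low to be tested, was at 0 in the Ptgs-/- group and at most 0.397 CPM in the Ptgs+/+ group. The sum of 6 endothelial markers was 246 to 272 CPM and 104 to 216 CPM, with 2 of 6 lower and none higher. Of 5 tested markers of regulatory T cells and type 2 lymphoid cells, which are known to make amphiregulin, 3 were higher and 1 lower. Il2ra, Ctla4 and Il7r rose (log2 fold changes 1.52, 2.70 and 0.92), and Il1rl1, an interleukin-33 receptor gene, fell from 457 to 659 CPM to 76.0 to 169 CPM. Macrophage markers (6 of 8 higher, 1740 to 2010 and 2640 to 4200 CPM summed) and fibroblast markers (4 of 8 higher, 7920 to 10500 and 13000 to 16500 CPM) went the other way. Of 5 tested keratinocyte markers 1 was lower and none higher: Krt5 had a log2 fold change of -1.81 (adjusted p = 0.026) and Krt14 one of -1.67 (adjusted p = 0.0725). The sum of all 10, mostly Sbsn, was 71.7 to 95.6 and 79.2 to 105 CPM, with Lor at 0 in both groups. Krt1 and Dsg3 were at 0 in Ptgs-/- tumors and at most 0.0899 and 0.107 CPM in Ptgs+/+ tumors. Tested markers of T cells (5 of 6), NK cells (6 of 6) and dendritic cells (6 of 7) were higher, and none was lower. Of 7 tested skeletal muscle markers 2 were higher. No marker of mast cells and basophils, adipocytes or melanocytic cells passed. The part of any of these in the ligand values was not tested.

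The second question was whether NK cells changed the same transcripts within Ptgs-/- tumors. None of the 7 genes passed edgeR's quasi-likelihood test between NK cell-competent and NK cell-depleted hosts (adjusted p 0.231 to 0.936), where 1.44% of all genes did. At an unadjusted p under 0.05 there were 2 (Areg and Hbegf). The share of all genes at that threshold is not given here, so no result is drawn from this count. DESeq2's Wald test and every other alternative fit also called none of the 7. The groups did not overlap for Areg and Erbb2, both lower with NK cells, against 8.32% of all genes that were lower in this way.

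Areg was at 22.1, 15.7 and 18.3 CPM with NK cells and at 27.6, 37.4 and 22.1 CPM without them, where the highest tumor with NK cells and the lowest without were level at this rounding, with 182 and 226 counts. The log2 fold change was -0.64 (95% interval -1.09 to -0.19, adjusted p = 0.231). Erbb2 was at 10.4 to 12.6 CPM in the 3 tumors of depleted hosts, all of them between the other groups, with a log2 fold change of -0.36 (95% interval -0.77 to 0.06, adjusted p = 0.536). Ereg stood at 37.5, 44.7 and 37.6 CPM in depleted hosts and overlapped the Ptgs-/- tumors of competent hosts (log2 fold change -0.48, 95% interval -0.96 to 0.00, adjusted p = 0.446). Hbegf, at 155, 192 and 170 CPM in depleted hosts, had a log2 fold change of -0.38 (adjusted p = 0.44). The intervals of Btc (-0.76 to 0.37), Egfr (-0.13 to 1.08) and Nrg1 (-0.82 to 1.06) all held 0, and those of Egfr and Nrg1 allowed a change of over 1 log2 unit. The 3 tumors of depleted hosts also held more skeletal muscle RNA, with 8 markers summing to 2100 to 4880 CPM against 92.0 to 338 CPM with NK cells, and its part in these values was not tested.

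The third comparison set the Ptgs-/- tumors of depleted hosts against the same 4 Ptgs+/+ tumors, so COX genotype and antibody treatment both differed. Ereg and Nrg1 were lower, 2 of the 7 genes, and none was higher, beside 5.87% lower and 6.63% higher over all genes. By the study's rule both were again called lower, beside 0.701% of all genes. Ereg was 3.66-fold lower (log2 fold change -1.87, SE 0.21, adjusted p = 0.000195), and the highest depleted tumor, at 44.7 CPM, was below the lowest Ptgs+/+ tumor, at 109 CPM. Within code EB046 it gave -1.98 (adjusted p = 0.00071). Nrg1, with 14, 19 and 14 counts in depleted hosts, was 3.13-fold lower (log2 fold change -1.65, SE 0.38, adjusted p = 0.0151), and its adjusted p was 0.0601 without depleted tumor 1, 0.0746 without depleted tumor 3 and 0.0509 within code EB046.

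Areg, which passed in the first comparison, had a log2 fold change of -0.43 here (95% interval -0.84 to -0.02, adjusted p = 0.167), and its depleted tumor 2, at 37.4 CPM, lay within the Ptgs+/+ range. Erbb2 did not overlap (10.4 to 12.6 against 13.3 to 19.8 CPM) and missed the threshold (log2 fold change -0.53, 95% interval -0.92 to -0.15, adjusted p = 0.068). It passed without Ptgs+/+ tumor 4 (adjusted p = 0.0409) and with DESeq2 (adjusted p = 0.0474). With Ereg and Nrg1 it makes 3 of the 7 genes whose groups did not overlap with the depleted tumors lower, against 13.1% of all genes. Hbegf, Btc and Egfr gave -0.17, 0.14 and -0.18 (adjusted p 0.559, 0.765 and 0.721). Ereg made up at most 12.7% of the EGFR ligand counts in a tumor of depleted hosts, with 1.36, 1.20 and 1.70 Ereg counts for each Areg count (two-sided exact permutation p = 0.0571 against Ptgs+/+ tumors, the smallest possible, and 0.5 against Ptgs-/- tumors of competent hosts, where 0.1 is the smallest possible). Neutrophil markers summed to 191 to 251 CPM in depleted hosts, also below the Ptgs+/+ tumors, with 6 of 9 tested ones lower. The neutrophil marker Retnlg was higher (log2 fold change 1.77, adjusted p = 0.0139). Skeletal muscle markers summed to 2100 to 4880 CPM against 16.7 to 154 CPM in Ptgs+/+ tumors, with all 7 tested ones higher (log2 fold changes 4.79 to 5.83). The part of either in these values was not tested. The 3 comparisons share tumors, so their values are not independent of each other.

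In the order of mean levels after Hbegf, in Ptgs+/+ tumors Ereg was second (109 to 171 CPM, overlapping Hbegf at 150 to 234 CPM) and above Btc (46.6 to 92.8 CPM), while Areg and Egfr, next in order, overlapped each other. In Ptgs-/- tumors Btc came second (49.5 to 92.7 CPM), followed by Egfr, Ereg and Areg. Egfr at 26.1 to 71.1 CPM overlapped both Btc and Ereg (21.4 to 38.7 CPM), and Ereg overlapped Areg (15.7 to 22.1 CPM). In depleted hosts the means of Btc, Ereg, Egfr and Areg were 82.2, 39.9, 34.0 and 29.0 CPM, and Egfr overlapped both Ereg and Areg. Erbb2, Nrg1 and Tgfa followed in that order in all 3 groups, and the ranges of Nrg1 and Tgfa overlapped only in Ptgs-/- tumors of competent hosts.

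Ereg, Areg and Btc lie in 1 region of chromosome 5 with a group of chemokine genes. This set of neighbors was chosen after its values were seen. It holds the 13 protein-coding genes from Cxcl5 to Parm1, all starting within 400 kb of the Areg start, of which 12 were tested. In Ptgs-/- against Ptgs+/+ tumors 8 of the 12 were lower and none higher, beside 1597 lower of all 14550 genes. The lower genes were Ereg, whose start lies 65.0 kb before that of Areg, Areg itself, and the chemokine genes Cxcl1, Cxcl2, Cxcl3, Cxcl5, Ppbp and Pf4, 236 to 380 kb before it. Cxcl1, which draws neutrophils through the receptor CXCR2, had a log2 fold change of -2.65 (adjusted p = 0.00135), and Cxcl2, of the same function, -1.89 (adjusted p = 0.032). Mthfd2l, a gene of mitochondrial folate metabolism that starts between these chemokine genes and Ereg, missed the threshold (-0.61, adjusted p = 0.0526). The chemokine gene Cxcl15, between Cxcl3 and Cxcl1, was not shown to differ (-0.44, adjusted p = 0.778). Btc and Parm1, 263.4 and 378 kb after the Areg start, had values of -0.05 and -0.24. In depleted hosts against Ptgs+/+ tumors 6 of the 12 were lower (Ereg, Cxcl1, Cxcl3, Cxcl5, Ppbp and Pf4), beside 5.87% of all genes. Areg was not among the 6. Between competent and depleted Ptgs-/- tumors only Cxcl5 passed, lower with NK cells (-1.26, adjusted p = 0.0284), beside 1.44% of all genes in either direction.

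**Figure D4:**
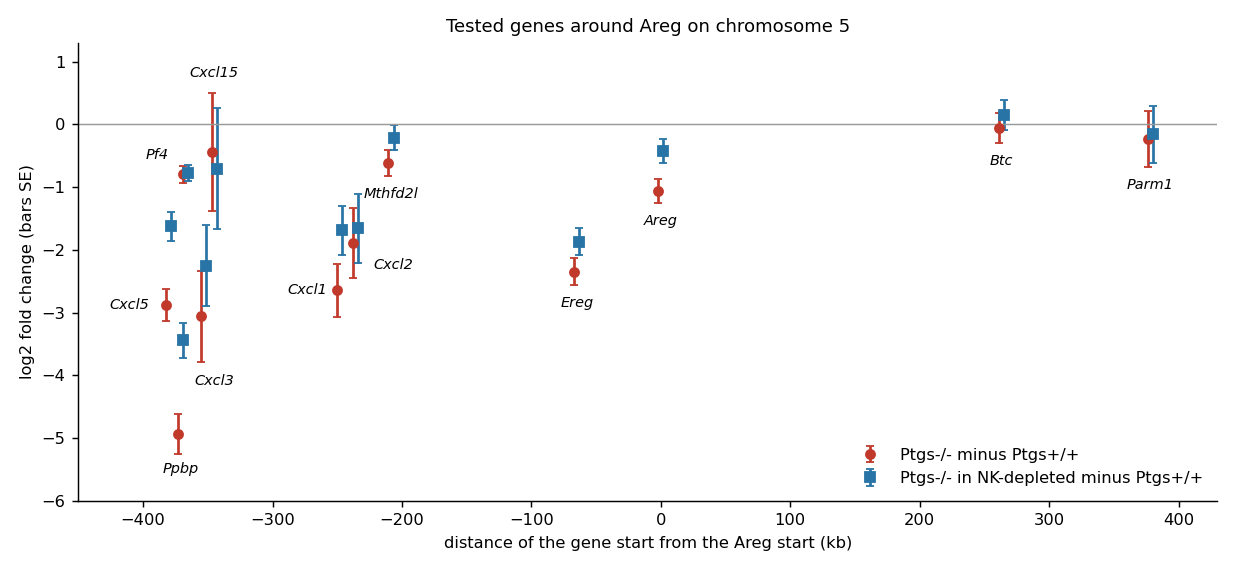
Log2 fold changes with SE (y axis) of the 12 tested genes around Areg against the distance of their starts from the Areg start in kb (x axis), with circles for Ptgs-/- and squares for Ptgs-/- in NK cell-depleted mice, each against Ptgs+/+ tumors. Most low points lie from Areg toward the chemokine genes on the left, where Cxcl15 and Mthfd2l did not pass, and Btc and Parm1 on the right lie near 0.

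The pathway counts that follow stand beside 1597 lower and 1763 higher of all 14550 genes (23.1% in all) in the first comparison, and 5.87% lower and 6.63% higher in the third. Genes that release the ligands did not move as one group. In Ptgs-/- against Ptgs+/+ tumors 2 of 8 were higher and 1 was lower (median log2 fold change -0.03). Timp3, an inhibitor of the shedding protease ADAM17, rose (1.31, adjusted p = 0.00514), as did Rhbdf2, whose product iRhom2 carries ADAM17 to the cell surface (0.68, adjusted p = 0.019). Rhbdf1, which encodes the related iRhom1, fell (-0.57, adjusted p = 0.00311), and it was the 1 gene of the 8 that passed in depleted hosts against Ptgs+/+ tumors (-0.40, adjusted p = 0.029). Of 11 negative regulators of the receptors, 1 was higher (Cbl, a ubiquitin ligase for EGFR, 0.47) and 2 lower (Socs5, -0.77, and Errfi1, an inhibitor of the receptor kinase, -0.46). Of 17 adaptors and members of the Ras-ERK chain, Grb2 was higher (0.28) and Hras (-0.41) and Shc1 (-0.38) lower. The medians of these 2 lists were 0.01 and -0.11, and their called shares, 27.3% and 17.6%, were near the 23.1% of all genes. Timp3, Rhbdf1 and Socs5 passed whichever tumor was left out (adjusted p at most 0.027, 0.019 and 0.0259). Rhbdf2 did not without Ptgs-/- tumor 2 (0.0571). Cbl, Errfi1, Hras, Shc1 and Grb2 lost the call on leaving out 3 to 9 of the single tumors, with adjusted p up to 0.196.

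Of 16 genes induced by ERK signaling, 6 were lower in Ptgs-/- than in Ptgs+/+ tumors and none higher (37.5% called, beside 23.1% of all genes in either direction), with a median of -0.22. They were Spry1 (-0.88), Phlda1 (-0.79, adjusted p = 0.000763), Dusp6 (-0.69), Spred1 (-0.63), Egr1 (-0.63) and Spry2 (-0.44), of which Spry1, Spry2, Spred1 and Dusp6 encode inhibitors of the pathway. In depleted hosts against Ptgs+/+ tumors 3 of the 16 were lower (beside 5.87% of all genes; Spred1, -0.55, Spry2, -0.55, and Phlda1, -0.47). In the first comparison Phlda1 and Spred1 passed whichever tumor was left out (adjusted p at most 0.00645 and 0.039), Spry1 did not without Ptgs-/- tumor 2 (0.0806), and Dusp6 did not without any of 4 tumors (up to 0.0816). Egr1 and Spry2 passed edgeR's quasi-likelihood test there at an adjusted p of 0.0234 and 0.0406. Their values on leaving out single tumors are not given here. The 3 calls in depleted hosts were each lost without any of 4 tumors (up to 0.108). Of 10 genes induced early by cAMP and CREB, 3 were lower and none higher (30.0% called), with a median of -0.56: Nr4a2, an orphan nuclear receptor gene (-2.53, adjusted p = 3.95e-05), Pde4b, a cAMP phosphodiesterase gene (-1.19), and Crem, a gene of a CREB-related factor (-0.78). In depleted hosts these 3 and Nr4a3 (-1.12) were lower than in Ptgs+/+ tumors, and all 7 of these calls held whichever tumor was left out (adjusted p at most 0.025). Nr4a3 was the 1 gene of these 5 lists, of 62 in all, that passed between competent and depleted Ptgs-/- tumors, higher with NK cells (0.97, adjusted p = 0.0336), a call lost on leaving out any of 7 tumors (adjusted p up to 0.171).

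Of 11 genes of PGE2 synthesis and signaling, 4 were lower and 2 higher in Ptgs-/- than in Ptgs+/+ tumors (54.5% called, the targeted genes included). The targeted genes Ptgs1 and Ptgs2 were joined by the PGE2 synthase genes Ptges (-0.64) and Ptges3 (-0.42). The genes of EP2 and EP4, Ptger2 (1.29, adjusted p = 0.029) and Ptger4 (0.98, adjusted p = 0.0023), were higher. The Ptger4 call held whichever tumor was left out (adjusted p at most 0.0109), and that of Ptger2 was lost without any of 3 tumors (up to 0.166). In depleted hosts against Ptgs+/+ tumors Ptger4 was also higher (0.74, adjusted p = 0.016), but not without depleted tumor 2 or 3 (up to 0.0807).

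**Figure D5:**
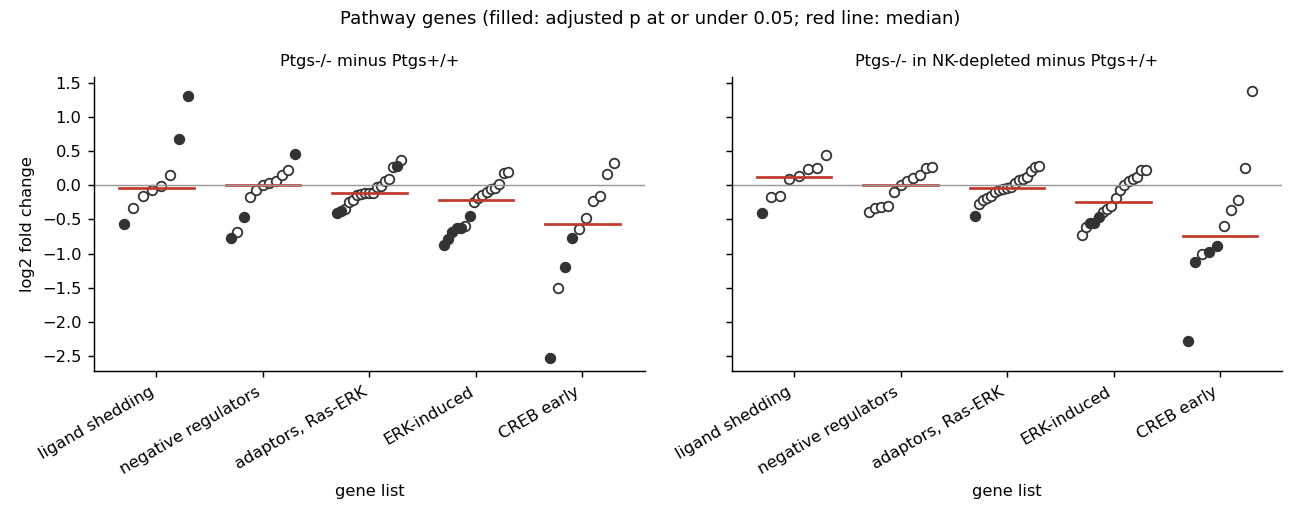
Log2 fold changes (y axis) of each gene in 5 pathway lists (x axis), for Ptgs-/- (left) and Ptgs-/- in NK cell-depleted mice (right) against Ptgs+/+ tumors, with filled points for an adjusted p at or under 0.05 and a red line at each list's median. ERK-induced and CREB early genes have filled points only below 0, with Nr4a2 lowest at -2.53 and -2.29.

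Across the 10 tumors, patterns of log2(CPM + 1) were compared by Pearson's r, which here follows the 3 groups and is given as a description. Ereg was most like Arhgef17 (r = 0.994), Timp1 (0.99) and Nr4a2 (0.99). Timp1, a metalloproteinase inhibitor gene, ranged from 218 to 753 CPM and Nr4a2 from 18.5 to 179 CPM. Areg was most like Mrps22, Mmgt1 and Dnph1 (r of 0.966 to 0.98), Erbb2 like Mfge8, B4gat1 and Imp3 (0.974 to 0.993), and Nrg1 like Pfdn4, Ncapg2 and Tbx20 (0.969 to 0.977). The closest genes were less close for Egfr (C130050O18Rik, Pla2g4c and Trabd2b, 0.931 to 0.964), Hbegf (Chic1, Mindy4 and P2ry2, 0.905 to 0.923) and Btc (Itgb1, Fra10ac1 and Esm1, 0.891 to 0.892). Among the members, Ereg had r of 0.856 with Areg, 0.891 with Erbb2 and 0.874 with Nrg1, but 0.154 with Btc and -0.246 with Egfr.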

How the data were processed

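Bulk RNA of 10 mouse tumors (4 Ptgs+/+, 3 Ptgs-/-, 3 Ptgs-/- in NK cell-depleted mice) was measured with QuantSeq 3′ libraries. The authors trimmed reads (BBDUK, fqtrim, cutadapt), mapped them with STAR on GRCm38 and assigned them to Ensembl v86 genes by featureCounts. The authors deposited raw counts, 1 column per tumor, not normalized or pooled. The strand setting is not given in the sources used here, and the use of molecular identifiers likewise. Nothing says how tumors were shared over mice beyond their labels, so p-values judge group differences against the spread between these tumors. Of 45706 genes, 45143 were named from GENCODE M21 (GRCm38), which also gave coordinates, and promoters are RefSeq's (GRCm38.p6).

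The analysis used edgeR 4.0.16 in R 4.3.3, with filterByExpr (14550 genes kept), TMM factors, a single model for the 10 libraries with a term per group, and quasi-likelihood tests of the 3 contrasts. Intervals of 95% come from the same fit and include the spread between tumors. A gene passed at a Benjamini-Hochberg adjusted p at or under 0.05. The members and gene lists were chosen with earlier results of these data known. Named genes are the 8 members, the rest of the family, Ptgs1 and Ptgs2, up to 4 genes that passed per pathway list and comparison with the largest changes, and the 3 most correlated genes per member. Egr1, Spry2 in the first comparison, Ptges and Ptges3 there, Mien1, Egfros, single marker genes and the chromosome 5 neighbors were added after their values were seen. Alternatives were DESeq2 1.42.0, other scalings, tests, filters, thresholds and covariates, and leaving out each tumor. Tested on simulated data for the first comparison (14343 genes run), the fit called 198 of 200 genes changed by a log2 fold change of 2 and 8 unchanged genes. The changed genes were drawn from those above a set mean level, so lower genes such as Nrg1, and smaller changes, were not tried.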

Additional observations from a re-analysis of the deposited data

Results flagged for a closer look

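Nrg1 in Ptgs+/+ tumor 3, at 2.43 CPM (27 counts), stood apart from the other 3 tumors of its group, at 5.36 to 5.96 CPM. Its gap to the nearest tumor was 0.831 of the group's range, just past Dixon's 95% critical value for 4 samples, 0.829. The family genes gave 13 groups of 4 tumors that could be examined, and chance alone marks about 1 in 20. Without that tumor Nrg1 still passed the test in Ptgs-/- against Ptgs+/+ tumors, with a log2 fold change of -1.75.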

How the results depend on the processing

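Of 459 alternative values of the 7 tested members over the 3 comparisons, 428 kept their direction and side of the threshold. Ereg kept its calls in both comparisons with Ptgs+/+ tumors under every alternative, and Areg and Erbb2 kept theirs in the first, the added fold change rule apart. In Ptgs-/- against Ptgs+/+ tumors, 5 members and 3360 genes passed, which became 3 and 2222 within code EB046 alone, 3 and 1594 at an adjusted p of 0.01, 2 and 604 with the log2 fold change rule, and 3 to 5 and 2062 to 3881 on leaving out single tumors, lowest without Ptgs-/- tumor 2. Between competent and depleted Ptgs-/- tumors no member passed under any alternative, and the 209 genes became 383 with DESeq2, 403 with the likelihood ratio test, 408 without a filter, 42 with at least 10 counts in every library, 93 within EB046, 98 at 0.01, and 106 to 411 on leaving out single tumors (lowest without Ptgs-/- tumor 2, highest without Ptgs-/- tumor 1). In depleted hosts against Ptgs+/+ tumors, 2 members became 1 with at least 10 counts in every library (which removes Nrg1 from the test), within EB046 and at 0.01, and 1 to 3 on leaving out single tumors, while 1818 genes became 773 at 0.01, 395 with the fold change rule and 909 to 2116 on leaving out single tumors. The causes of the other changes were not tested.

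Btc, Egfr and Nrg1 changed sign, with adjusted p of 0.686 or more where they did. Btc in the first comparison turned to 0.0085 with library size alone, 0.023 with the code as a term and -0.28 to 0.17 on leaving out single tumors. In the second it ran from -0.42 to 0.0314, and in the third from -0.0286 to 0.27, with -0.0028 under the replicate block and -0.0171 within EB046. Egfr in the first ran from -0.11 to 0.58 (adjusted p = 0.0514 at the upper end, without Ptgs-/- tumor 1), and Nrg1 in the second from -0.19 to 0.43. Deviations from the group means correlated at -0.222 to 0.386 between same-numbered tumors and at -0.466 to 0.188 between the others. The Ptgs+/+ tumor labelled 2 under EB042 is numbered 4 here. Same-numbered tumors also include pairs from different codes, so these values do not settle whether tumors are paired. In the replicate block Ptgs+/+ tumor 4 has a number of its own and so adds nothing to the comparisons. With that block 5, 0 and 2 members and 3070, 140 and 1825 genes passed in the 3 comparisons. Of 34 calls of named pathway genes, 17 held whichever tumor was left out. Depth limits low genes, among the members Tgfa at 6 to 16 and Nrg1 at 9 to 75 counts per tumor.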
